A study of Mus musculus with 4 samples.

Results

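The genes described here encode the proteins of the cytosolic ribosome and their close paralogues. They were chosen by symbol alone: names of the form Rpl or Rps followed by a number and, in some, a letter or a copy digit, together with Rpsa, Rplp0, Rplp1, Rplp2 and the named paralogues. The annotation holds 89 such genes and the deposited data 84 of them, out of 22073 gene identifiers. They comprise 43 genes of the large subunit, 31 of the small subunit, 3 of the ribosomal stalk and 7 paralogues. RNA was taken from right testes of KM mice, an outbred strain, at maturity. The hemicastrated group had 2 mice, whose left testis was taken out before puberty, and the control group had 2 sham-operated mice, called controls, with no other treatment or engineered allele named for either. The labels of the control libraries give their source as normal mouse, without naming surgery. Each library is treated as 1 mouse, since the extraction text speaks of 4 individuals, although the protocol mentions 3 mice per group, and the p-values measure only the spread between these libraries.

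Ribosomes translate every mRNA, and each is built from ribosomal RNA and a set of proteins of which nearly all are needed in a single copy per particle. Genes of this family are expressed in all cells, and in mammals their mRNAs have spread many retrocopies (intronless copies made by reverse transcription) through the genome, most of them pseudogenes. In male meiosis the X chromosome is silenced, and autosomal retrogenes such as Rpl10l are known to supply protein in place of their X-linked parents. The ribosomes of developing sperm are also known to carry the testis form of eL39, encoded by Rpl39l.

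Values are deposited FPKM, that is fragments scaled to transcript length and to the number of mapped fragments, and read depth is unknown. A value of exactly 0 can be a failed estimate, so such genes are described as listed at 0. Markers of germ cells (6 of 6), Leydig cells (5 of 5) and Sertoli cells (3 of 5) reached a mean of 1 FPKM. Their summed FPKM also differed, with 0 of these genes called in limma. It was 15829 and 16715 after sham surgery against 18322 and 18344 after hemicastration for germ cell genes. Leydig genes were at 1611 and 1516 against 1888 and 1783, and Sertoli genes at 78.6 and 89.4 against 127.5 and 128.5. Leukocyte genes were at 36.3 and 34.3 against 26.9 and 27.0, also with 0 called. The log2 fold change (hemicastrated minus control) was positive in 6 of 6 germ cell and 3 of 3 tested Sertoli genes. It was positive in only 2 of 5 Leydig genes (median -0.007) and 1 of 3 tested leukocyte genes, against 43.4% of all tested genes. The higher Leydig sum was therefore not shared by most of its genes. Markers of epididymis and smooth muscle fell after hemicastration. The summed FPKM of 8 epididymis genes was 1276 and 1807 after sham surgery against 4.71 and 7.12 after hemicastration. In limma, 5 of the 5 tested genes were called lower (adjusted p under 0.05), against 1.19% of all 11343 genes tested. The summed FPKM of 5 smooth muscle genes was 88.3 and 68.5 against 27.9 and 24.6. Each of the 5 had a negative log2 fold change, and 4 of 5 were called lower. The part of these tissues in the results below was not tested. In a bulk tissue, fewer cells of a type and less RNA per cell cannot be told apart.

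Coding sequences of 3 pairs show how far members of the family resemble each other, which bears on every level given below. Each is written 5′ to 3′ from the GENCODE M21 transcripts (GRCm38), with capitals at the bases that differ between the pair. The first pair is Rpl39 (chromosome X, 37082520 to 37085402) and its autosomal paralogue Rpl39l (chromosome 16, 10170226 to 10174911), both shown whole at 156 bases, of which 23 differ.
Rpl39: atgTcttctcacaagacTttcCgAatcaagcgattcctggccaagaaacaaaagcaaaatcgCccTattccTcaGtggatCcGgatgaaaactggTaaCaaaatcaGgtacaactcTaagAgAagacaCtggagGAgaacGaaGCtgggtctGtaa
Rpl39l: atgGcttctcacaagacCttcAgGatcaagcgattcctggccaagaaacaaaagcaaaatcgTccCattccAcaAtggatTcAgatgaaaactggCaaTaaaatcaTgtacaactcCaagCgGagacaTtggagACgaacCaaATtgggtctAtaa
The second pair is Rpl10 (chromosome X, 74270812 to 74273135) and Rpl10l (chromosome 12, 66283379 to 66284401), which differ at 98 of 645 coding bases. Their first 150 bases are shown, with 25 differences.
Rpl10: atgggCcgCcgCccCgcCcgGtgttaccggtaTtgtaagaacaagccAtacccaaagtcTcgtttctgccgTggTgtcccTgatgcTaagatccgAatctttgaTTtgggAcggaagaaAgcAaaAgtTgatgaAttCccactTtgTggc
Rpl10l: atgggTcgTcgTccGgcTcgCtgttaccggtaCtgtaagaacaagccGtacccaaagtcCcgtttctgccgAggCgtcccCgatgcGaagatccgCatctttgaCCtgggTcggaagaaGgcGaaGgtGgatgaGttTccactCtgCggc
The third pair is Rps27 (chromosome 3, 90212522 to 90213651) and Rps27l (chromosome 9, 66946086 to 66949516), with 61 differences in 255 bases. The sequence of Rps27 stands at the same time for Rps27rt, a retrocopy on chromosome 9 (114982366 to 114982739) annotated as protein-coding, since all 255 coding bases of these genes are identical.
Rps27: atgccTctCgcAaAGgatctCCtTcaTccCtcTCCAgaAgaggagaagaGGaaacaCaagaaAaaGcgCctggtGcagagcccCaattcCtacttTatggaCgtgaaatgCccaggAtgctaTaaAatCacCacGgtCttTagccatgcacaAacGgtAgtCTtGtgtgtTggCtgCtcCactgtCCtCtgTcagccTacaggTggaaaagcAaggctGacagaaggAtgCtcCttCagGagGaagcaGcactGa
Rps27l: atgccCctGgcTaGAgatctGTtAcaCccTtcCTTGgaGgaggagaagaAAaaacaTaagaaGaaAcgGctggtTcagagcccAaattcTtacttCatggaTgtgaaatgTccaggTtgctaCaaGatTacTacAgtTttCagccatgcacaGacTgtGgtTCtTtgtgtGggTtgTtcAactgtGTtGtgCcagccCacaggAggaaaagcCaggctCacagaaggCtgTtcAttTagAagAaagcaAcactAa

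The listed levels of genes whose products enter the ribosome side by side differed by orders of magnitude. The median over the 84 members was 2.64 FPKM (mean of 4 libraries), against 7.56 for all tested genes. Of the 84, 19 had a mean of at least 50 FPKM, 11 lay between 10 and 50, 37 between 1 and 10, and 17 were under 1. The highest was Rpl41, which encodes a very short basic peptide of the large subunit and has the shortest coding sequence of the members, at 78 bases. Rpl41 stood at 933 and 920.4 FPKM after sham surgery and at 1038 and 1082 FPKM after hemicastration. It alone took 19.9% to 22.3% of the family's summed FPKM.

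Rpl39l was next, at 338 and 341 FPKM after sham surgery and 346 and 412 after hemicastration. Rpl32 of the large subunit followed, at 295 and 359 against 298 and 335 FPKM. The ranges of Rpl39l and Rpl32 over the 4 libraries overlapped, so the order of these genes by level is not firm. Between the groups, both hemicastrated libraries of Rpl39l lay above both controls, without a call (limma adjusted p = 0.672). For Rpl32 the groups overlapped. At the other end, Rpl13 and Rpl17 of the large subunit were listed at 0 in all 4 libraries. Rpl29 was above 0 in control 1 alone, at 0.0776 FPKM, and Rps12 in hemicastrated 2 alone, at 0.181 FPKM. Rpl36a was listed at 0 in control 2, and Rpl10 in hemicastrated 1. Rps6, which encodes the small subunit protein phosphorylated downstream of mTOR, had 0.282 to 0.344 FPKM.

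The subunits did not separate by level. Large subunit genes ranged from 0 to 993 FPKM with a median of 2.03, and small subunit genes had a median of 7.25. Of the stalk genes, which recruit translation factors, Rplp1 was at 153 and 152 FPKM after sham surgery against 158 and 155, Rplp0 at 94.96 and 89.1 against 92.3 and 91.3, and Rplp2 at 2.30 and 2.61 against 2.21 and 2.62. Rplp1 and Rplp2 encode the partners of 1 dimer, yet their listed levels lay far apart in each library.

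**Figure D1:**
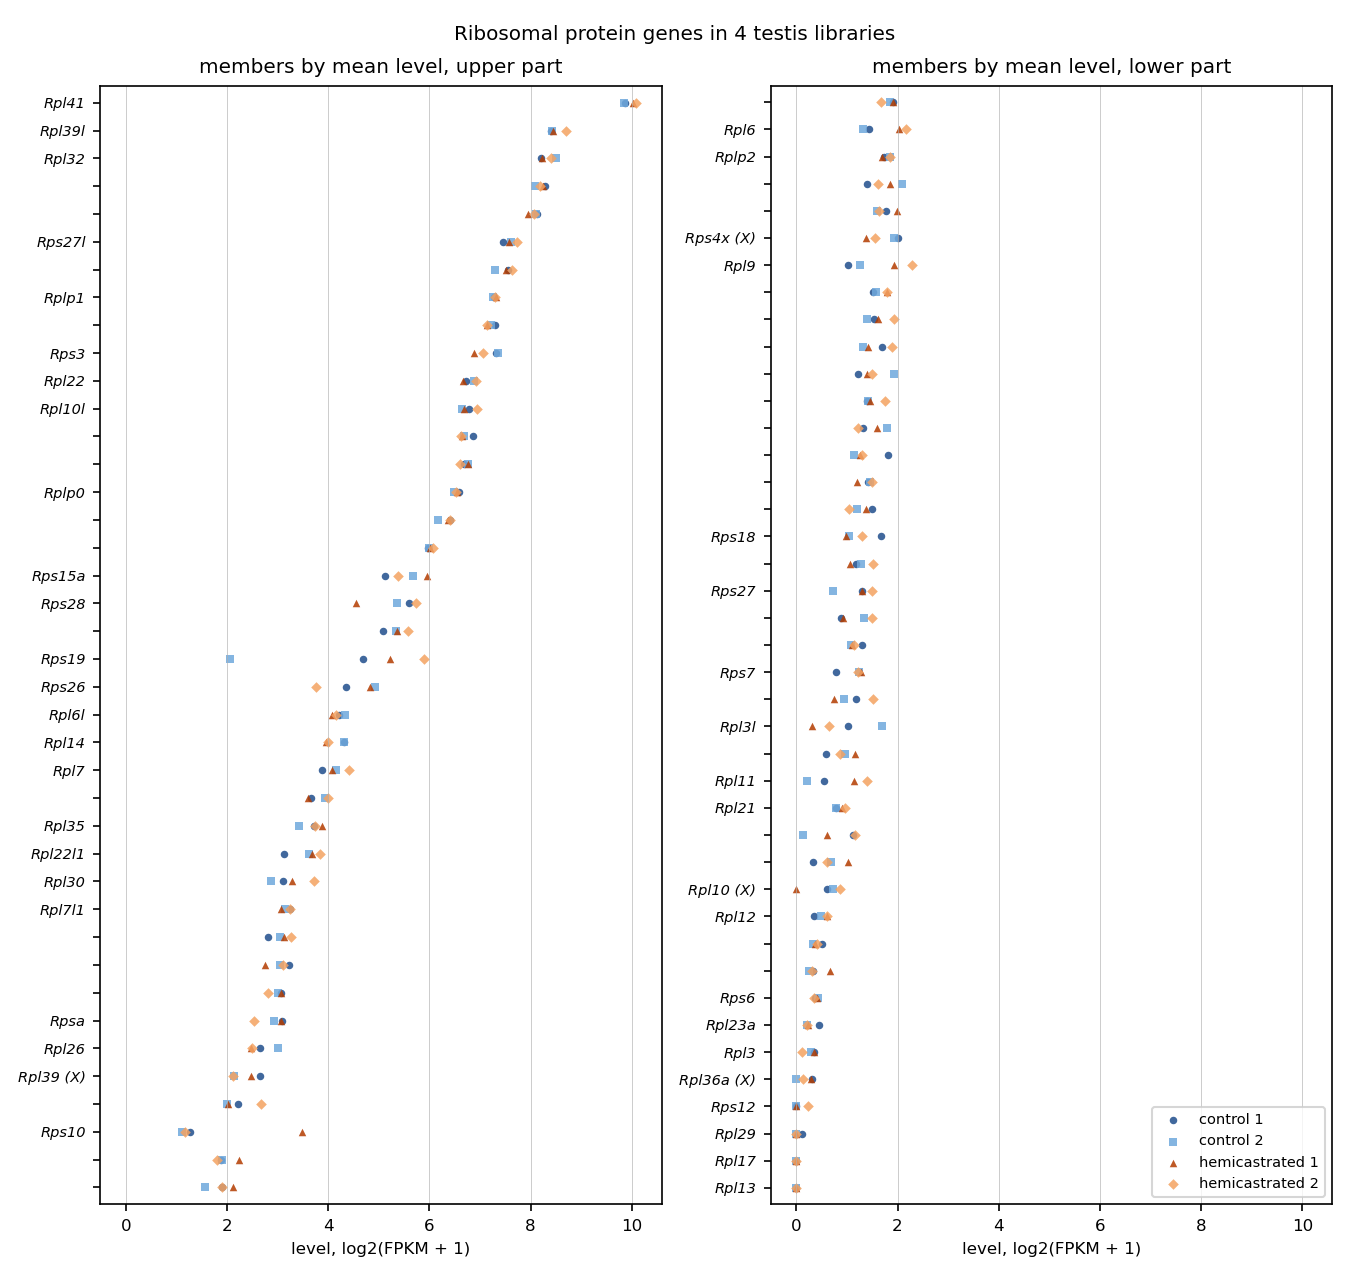
Level of 81 members (rows, ordered by the mean, with the genes named in the text labelled) on the log2(FPKM + 1) scale, with 1 symbol per library and X-linked genes marked (X). The 17 members shown with a mean of at least 50 FPKM have closely stacked symbols for the 4 libraries, whereas Rps19 in control 2 and Rps10 in hemicastrated 1 stand away from the other libraries.

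Genes with many near-identical copies elsewhere in the genome had low listed levels. A copy was counted where another annotated gene had a transcript at least 95% identical over at least 80% of the member's coding sequence. By this count 78 of the 84 members had at least 1 copy, and 574 different copies were found, of which 39 are rows of the table. The 6 members without a copy had a median of 242 FPKM, and 5 of them were at 50 FPKM or more. With 1 or 2 copies (15 members) the median was 63.5 FPKM, with 3 to 5 copies (24 members) it was 3.64, and with 6 to 57 copies (39 members) it was 1.44. In this last class none of the 39 reached 50 FPKM, and Rps15a was highest at a mean of 46.3. As a description across the 84 genes, which share the same libraries, Spearman's rho between mean level and number of copies was -0.57. Against the length of the coding sequence it was -0.11. The sources used here do not give how fragments that fit several genes were assigned, so a low level of a gene with copies cannot be told apart from fragments left out or given to a copy.

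Several copies had high listed levels where the intron-bearing gene was low. Rps27 was at 1.47 and 0.646 FPKM after sham surgery and 1.46 and 1.82 after hemicastration, while its identical copy Rps27rt was at 419.7 and 457 against 448 and 498. Rps12 was listed at 0 in 3 libraries, while Rps12-ps3, 100% identical over the coding sequence, stood at 25.9 and 31.0 against 32.3 and 38.3 FPKM. Rps18, at 0.972 to 2.21 FPKM, had a copy Gm10260 at 94.2 and 98.7 against 109.9 and 109.1. For Rpl35, at 9.66 to 13.8 FPKM, the copy Gm2000 was at 224 and 223 against 232 and 244. Rpl23a, at 0.160 to 0.363 FPKM, had the pseudogene copy Rpl23a-ps3 at 38.3 and 42.9 against 36.6 and 47.5. Rpl9, at 1.03 to 3.91 FPKM, had the copy Rpl9-ps6 at 36.4 and 37.7 against 37.1 and 42.2. When each member was summed with its copies in the table, 39 in place of 30 members had a mean of at least 10 FPKM. Among those gained, Rps7 reached 11.4 only through hemicastrated 1, where its sum was 39.6 FPKM. Its sums were 1.36 and 2.22 after sham surgery and 2.52 in hemicastrated 2. Rpl6 was gained by adding Rpl6l, itself a member already above 10 FPKM.

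**Figure D2:**
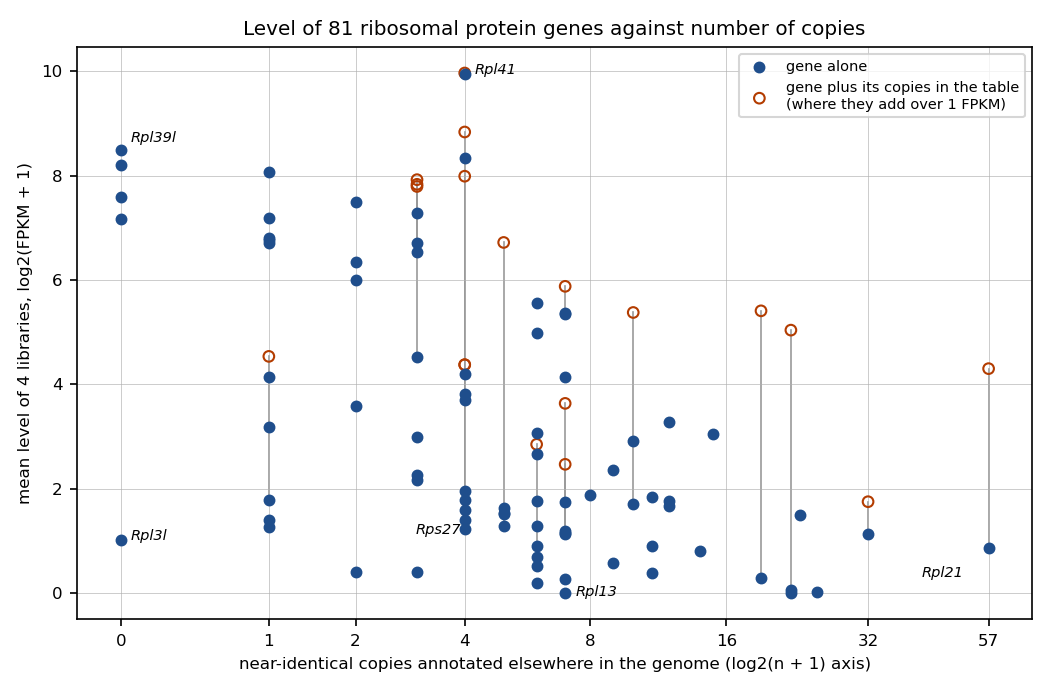
Mean level of 81 members over the 4 libraries (log2(FPKM + 1)) against its number of near-identical copies in the annotation (axis spaced as log2 of the number plus 1). Filled points are the gene alone, and open circles joined by a line add the copies listed in the table, as for Rps27, which moves from 1.35 to 457 FPKM.

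In 3 pairs an autosomal paralogue was listed far above its X-linked parent. Rpl10 encodes a large subunit protein that joins the particle late in its assembly, and was at 0.531 and 0.650 FPKM after sham surgery, listed at 0 in hemicastrated 1, and 0.812 in hemicastrated 2. Rpl10l was at 109.2 and 98.9 FPKM after sham surgery and at 102 and 122 after hemicastration, so it made up at least 99.3% of the pair's FPKM in each library. Rpl39 was at 5.31 and 3.43 FPKM against 4.54 and 3.37, and Rpl39l made up 98.5% to 99.2% of that pair. Rpl36a stood at 0.238 FPKM and 0 after sham surgery and at 0.218 and 0.0955 after hemicastration. Its autosomal paralogue Rpl36al, which the symbol rule does not take, was at 59.5 and 57.6 against 73.4 and 60.7 FPKM. The fourth X-linked member, Rps4x, was at 3.03 and 2.82 FPKM after sham surgery and at 1.61 and 1.95 after hemicastration. Its paralogue Rps4l is among the 5 annotated genes of the family without a row and was not analysed here.

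The copy number differed within these pairs as well. Rpl10 and Rpl39 each had 9 near-identical copies, Rps4x had 7 and Rpl36a 6, whereas Rpl10l had 1 and Rpl39l none. The 35 autosomal members with 6 or more copies had a median of 1.44 FPKM and ran from 0 to 46.3, a range that includes the 4 X-linked genes. X linkage and copy number therefore cannot be told apart here for the low level of the parents. Rpl10l and Rpl39l themselves were 84.8% and 85.3% identical to their parents, below the identity that counts as a copy here.

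Autosomal pairs had no common order. Rps27l was at 174 and 194 FPKM after sham surgery against 189.7 and 211, far above Rps27 though below Rps27rt. Rpl22, an RNA-binding protein of the large subunit, was at 104 and 117 against 100.9 and 121 FPKM, and its paralogue Rpl22l1 at 7.73 and 11.3 against 11.8 and 13.2, or 6.92% to 10.5% of the pair. Rpl7 was at 13.7 and 16.7 against 15.8 and 20.4 FPKM, and Rpl7l1 at 8.45 and 7.84 against 7.42 and 8.43. Rpl6l, annotated as a processed pseudogene, was at 17.6 and 19.1 against 15.9 and 16.7 FPKM, above Rpl6 in each library. At 98.7% identity it also counts as a near-identical copy of Rpl6. The order of Rpl6 and Rpl6l therefore cannot be told apart from how shared fragments were assigned. Rpl3l, the form known from heart and skeletal muscle, was at 1.02 and 2.21 FPKM after sham surgery and 0.246 and 0.573 after hemicastration, beside 0.0876 to 0.274 for Rpl3.

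**Figure D3:**
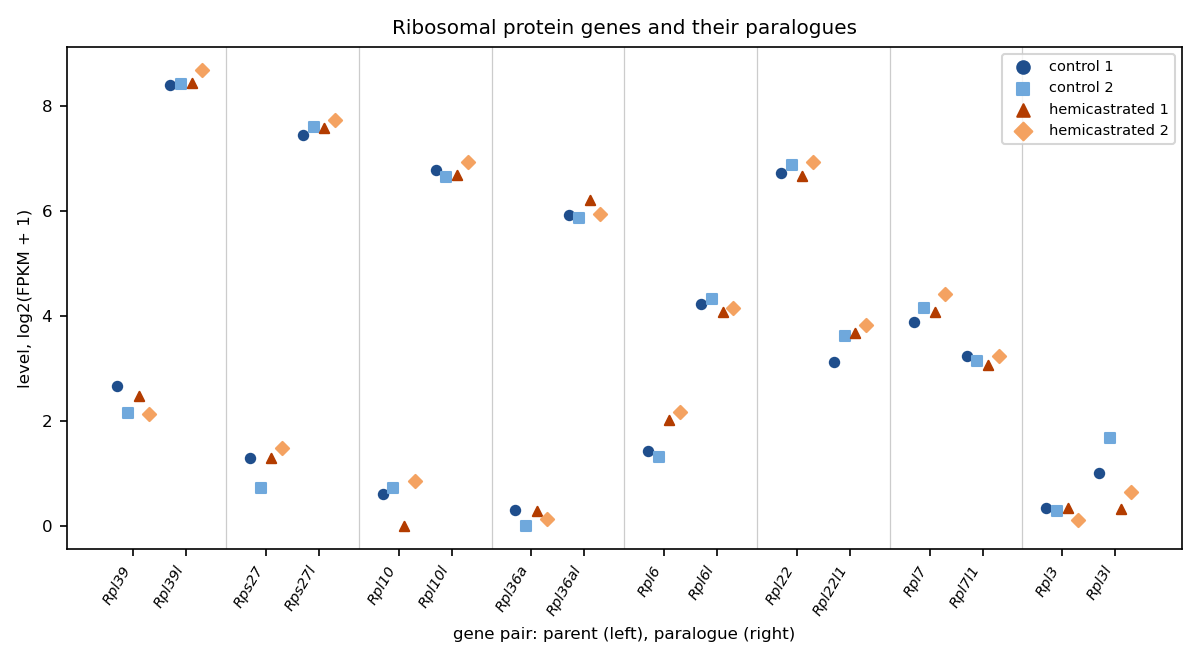
Levels of 8 parent genes (left of each pair) and their paralogues (right) on the log2(FPKM + 1) scale, with 1 symbol per library. Rpl39l, Rps27l, Rpl10l and Rpl36al lie far above their parents in all 4 libraries, and Rpl22 lies above Rpl22l1.

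No member passed the test between hemicastrated and control testis. The family's share of the summed FPKM differed little, although it was higher in both hemicastrated libraries than in both controls. This difference was not tested. The family took 1.34% of the summed FPKM in each control library, 1.36% in hemicastrated 1 and 1.42% in hemicastrated 2. The difference of the group means was 0.045 percentage points, and 0.004 without the 5 members of the highest mean. The fold change was fitted for the 67 members with a mean of at least 1 FPKM in limma on log2(FPKM + 1), as hemicastrated minus control. At a Benjamini-Hochberg adjusted p under 0.05 in limma, 0 of 67 were lower and 0 were higher, against 1.19% and 0.106% of all 11343 genes tested. At an unadjusted p under 0.05 the count was 9 of 67 (13.4%), against 10.5% of all genes tested. The median log2 fold change was 0.004 for the members and -0.026 for all tested genes, with 35 members above 0 and 32 below.

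The intervals show how small a change the data could bound on the log2(FPKM + 1) scale, on which the same interval allows a larger change in FPKM for a low gene. Of the 67 members, 60 had a 95% confidence interval of the log2 fold change inside -1 to 1, and 27 had one inside -0.5 to 0.5. All 19 members at 50 FPKM or more had it inside -1 to 1, and their fold changes ran from -0.37 to 0.19. For these 19 the highest library was at most 1.39 times the lowest. Among the 37 members between 1 and 10 FPKM the fold changes ran from -0.86 to 1.14, and in 11 of the 37 the highest library was more than 2 times the lowest. By role, 17 of 31 tested large subunit genes had a positive log2 fold change (median 0.031), as did 13 of 26 small subunit genes (median 0.001), 1 of 3 stalk genes and 4 of 7 paralogues.

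Both hemicastrated libraries lay above both controls in 16 of 67 members (23.9%), against 16.3% of all genes tested. The opposite order held for 9 of 67 (13.4%), against 24.8%.

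**Figure D4:**
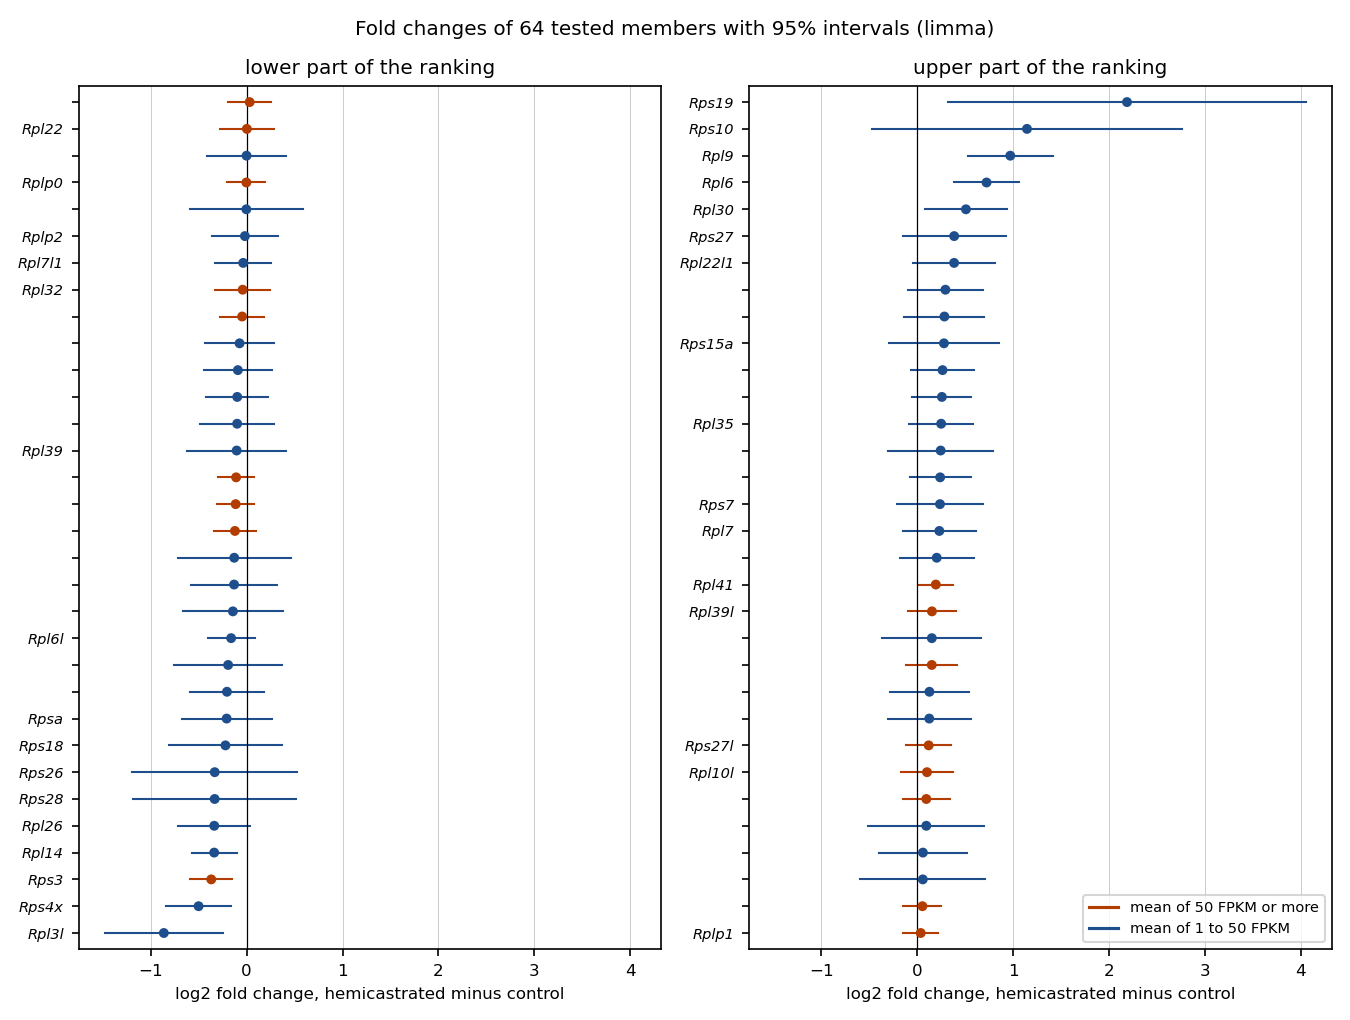
Log2 fold change (hemicastrated minus control) of 64 tested members, ordered by size and labelled where the text names them, with 95% confidence intervals from limma. Points in orange have a mean of at least 50 FPKM and lie between -0.37 and 0.19, while the widest intervals belong to Rps19 and Rps10.

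The smallest adjusted p in the family belonged to Rpl9, a large subunit protein (chromosome 5, 65388364 to 65391444). Its FPKM was 1.03 and 1.39 after sham surgery and 2.79 and 3.91 after hemicastration, with no overlap between the groups (log2 fold change 0.97, SE 0.18, limma adjusted p = 0.0926). It passed the threshold without hemicastrated 1 (limma adjusted p = 0.0492). Summed with its copies, the log2 fold change of Rpl9 was 0.16. Rpl6, which also belongs to the large subunit, was at 1.71 and 1.48 FPKM against 3.07 and 3.50, again without overlap (log2 fold change 0.72, limma adjusted p = 0.107). Summed with Rpl6l, its log2 fold change was -0.026. Rpl30, a large subunit protein, was at 7.67 and 6.32 against 8.75 and 12.2 FPKM (log2 fold change 0.51, limma adjusted p = 0.386).

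Among the 19 most abundant members the lowest fold change was that of Rps3, a small subunit protein at the mRNA entry site. Rps3 (chromosome 7, 99477896 to 99483738), which had no near-identical copy, was at 159 and 163 FPKM after sham surgery and at 117 and 132 after hemicastration. The groups did not overlap, and the difference did not pass the threshold (log2 fold change -0.37, SE 0.09, limma adjusted p = 0.195). Rpl14 of the large subunit was at 19.0 and 18.7 against 14.5 and 14.9 FPKM (log2 fold change -0.34, limma adjusted p = 0.271). Rps4x had a log2 fold change of -0.50 (limma adjusted p = 0.268) and Rpl3l of -0.86 (limma adjusted p = 0.289). Rpl26, a large subunit protein, was at 5.25 and 7.02 against 4.57 and 4.62 FPKM (log2 fold change -0.34). Rpl41, the most abundant, had a log2 fold change of 0.19 (interval 0.01 to 0.38, limma adjusted p = 0.441). For Rpl39l and Rpl10l the log2 fold changes were 0.15 (interval -0.09 to 0.40) and 0.10 (interval -0.17 to 0.37).

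Several fold changes depended strongly on a single library, among them the largest, those of Rps19 and Rps10. Rps19, whose human counterpart is the gene most often mutated in Diamond-Blackfan anaemia, was at 24.7 FPKM in control 1 and 3.17 in control 2, against 36.4 and 58.4 after hemicastration. Its log2 fold change of 2.19 (SE 0.77, limma adjusted p = 0.389) was 0.88 without control 2 and 3.50 without control 1, where it passed the threshold (limma adjusted p = 0.0182). Rps10 was at 1.41 and 1.15 FPKM after sham surgery, 10.2 in hemicastrated 1 and 1.25 in hemicastrated 2. Its log2 fold change was 1.14 (limma adjusted p = 0.627), -0.016 without hemicastrated 1 and 2.31 without hemicastrated 2, where it was called (limma adjusted p = 0.00123). Rps28 was at 47.4 and 40.0 FPKM after sham surgery, 22.5 in hemicastrated 1 and 52.2 in hemicastrated 2, and without hemicastrated 2 it was called lower (limma adjusted p = 0.0297). With its copy Gm10263 the sum for Rps28 was 51.3 and 43.1 against 81.1 and 55.99 FPKM, so the log2 fold change turned from -0.33 to 0.51 (limma adjusted p = 0.393). Rps26 was at 19.3 and 29.3 against 27.5 and 12.6 FPKM. With the copy Rps26-ps1, at 211 and 203 against 177 and 230, the sum was 231 and 232 after sham surgery and 204 and 243 after hemicastration.

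The 17 members under a mean of 1 FPKM were not tested. In 3 of the 17 (17.6%; Rpl11, Rpl12 and Rpl21) both hemicastrated libraries lay above both controls, against 8.29% of all 10730 genes under that mean, 3486 of which were listed at 0 throughout. Summed with its copy, Rpl21 had the opposite order, at 20.5 and 20.4 against 16.01 and 18.02 FPKM. Rpl11, a large subunit protein that also binds Mdm2, was at 0.457 and 0.159 FPKM after sham surgery and 1.21 and 1.64 after hemicastration. Its copy Gm10036 was higher, at 4.59 and 4.13 against 4.51 and 6.24 FPKM.

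Of 6 tested ribosomal protein genes outside the symbol rule, 0 passed in limma (2 at an unadjusted p under 0.05; median log2 fold change 0.1). Rack1, a scaffold protein of the small subunit, was at 168 and 158 FPKM after sham surgery and 126 and 111 after hemicastration (log2 fold change -0.46, SE 0.10, limma adjusted p = 0.13). The groups did not overlap for Rack1, and it did not pass the threshold. Fau, which encodes a small subunit protein fused to a ubiquitin-like one, had a log2 fold change of 0.15, as against 0.19 for Rpl36al, 0.11 for Rps27rt and 0.09 for Rpl9-ps6.

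Genes that build and use ribosomes were not called either. The counts below stand beside 10.5% of all tested genes at an unadjusted p under 0.05, 43.4% above 0 and a median of -0.026 on the log2 scale. Of 51 tested factors of ribosome assembly, 0 passed the limma threshold (3 at an unadjusted p under 0.05; median log2 fold change 0.001), with Sdad1 at 18.7 and 16.7 FPKM against 23.2 and 23.7, and Ebna1bp2 at 21.3 and 22.7 against 27.8 and 27.1. Of 13 genes for RNA polymerase I and its factors, which transcribe ribosomal RNA, 0 passed in limma (4 at an unadjusted p under 0.05; median 0.02). In this list Polr1d, a subunit shared with RNA polymerase III, was at 24.5 and 23.8 FPKM after sham surgery against 43.6 and 35.4 (log2 fold change 0.68, SE 0.12, limma adjusted p = 0.0759). It was called without hemicastrated 2. Polr1c, the partner of Polr1d, was at 34.7 and 32.6 against 42.9 and 41.97 FPKM.

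Of 35 initiation factors, 0 passed in limma (1 at an unadjusted p under 0.05; median -0.013), with Eif3e at 39.9 and 42.96 FPKM against 49.5 and 52.1 and Eif2s2 at 4.68 and 5.61 against 6.31 and 6.09. Of 12 elongation and termination factors, 0 passed in limma (1 at an unadjusted p under 0.05; median -0.024), with Eef1b2, an exchange factor of elongation factor 1, at 72.4 and 70.5 FPKM against 56.2 and 59.2, and Tpt1 at 9.25 and 10.5 against 12.1 and 11.1. The list of mTOR, LARP and related genes was chosen for links to the translation of ribosomal protein mRNAs. It had 0 of 18 past the limma threshold and 0 at an unadjusted p under 0.05. Of the 18, 3 had positive log2 fold changes, against 43.4% of all tested genes (median -0.088). In the other lists 26 of 51 assembly, 8 of 13 polymerase I, 15 of 35 initiation and 5 of 12 elongation and termination genes were positive. In the mTOR and LARP list, 1 gene had a value apart in 1 library. Its Larp1b was at 10.9 FPKM in control 1, 45.8 in control 2, and 11.7 and 10.99 after hemicastration, so control 2 alone stood apart, and without control 1 Larp1b was called lower. Larp4b was at 6.46 and 6.09 against 4.94 and 5.83 FPKM.

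Vertebrate ribosomal protein mRNAs are known to start with a tract of pyrimidines (C or T), through which mTOR controls their translation. RefSeq start windows (GRCm38.p6) matched 63 of the 84 members with 75 start sites. A run of at least 7 pyrimidines within 20 bases on either side of the start was found on the coding strand of 40 of the 75 windows (53.3%), against 24.3% of all 32851 RefSeq windows of the same length. On the other strand the shares were 9.33% and 26.5%. Windows of 30 bases centred on the start are shown for Rps27 (chromosome 3, 90213634 to 90213663, minus strand) and its copy Rps27rt (chromosome 9, 114982725 to 114982754, minus strand). Rps27 and Rps27rt differ there, although their coding sequences are identical. The windows of the paralogues Rpl10l (chromosome 12, 66284387 to 66284416, minus strand) and Rpl39l (chromosome 16, 10170213 to 10170242, plus strand) follow. Capitals mark a run of at least 7 pyrimidines.
Rps27: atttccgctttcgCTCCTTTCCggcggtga
Rps27rt: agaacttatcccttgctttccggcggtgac
Rpl10l: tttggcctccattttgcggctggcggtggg
Rpl39l: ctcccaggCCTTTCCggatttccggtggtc
Rps27 and Rpl39l hold such a run and Rps27rt and Rpl10l do not, while Rps27rt and Rpl39l were both among the highest levels of the family. The X-linked parents, whose windows are not shown, matched their paralogues, since Rpl39 holds a run and Rpl10 does not. A run is a description of letters near an annotated start and not evidence of control.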

How the data were processed

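The values analysed are FPKM of poly(A) RNA from 4 testis libraries, deposited by the authors as a gene-by-library table. TopHat2 2.0.11, Cufflinks 2.2.1 and GRCm38 are named, without roles, per the submitters' processing notes. Not given in the sources used here are the annotation, the treatment of fragments that fit several genes, and read depth. The protocol names no step that marks the strand, and the labels call the molecule genomic DNA although the protocol describes RNA. GENCODE M21 (GRCm38) named 21806 of 22073 identifiers.

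The 11343 genes whose mean reached 1 FPKM were tested in limma 3.58.1 (R 4.3.3) on log2(FPKM + 1), with a variance trend and no covariate, two-sided, with Benjamini-Hochberg adjustment over all of them and a threshold of 0.05. Fold changes on this scale understate the change of low genes. An exact permutation test of 2 against 2 libraries cannot go below 0.33. On data simulated for this comparison over 11343 genes, limma recovered 74.8% of 2-fold and 98.7% of 4-fold changes, and 5.81% of its calls were false. The simulation drew normal errors with variances from limma's own fit and set the changes on the log2(FPKM + 1) scale. It modelled no single-library values such as those of Rps19 and Rps10. These rates therefore hold where limma's model is true and were not measured on the real data.

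The members and lists were chosen with earlier results of these data known. Named genes are called members, those listed at 0, paralogues and parents, X-linked and stalk genes, the 5 highest and 5 lowest fold changes, the 5 highest levels and, per list, called genes or the 2 with the smallest p. A few of these are not reported here. All other named genes were chosen after their values were seen. So were the level and copy classes, the search for copies (BLAST+ 2.17.0, coding sequences against annotated transcripts, 1 pair of thresholds run) and the pyrimidine search (1 setting run). The coding sequence was first the longest of each gene and was changed to the CCDS or principal one after odd lengths were seen for some genes, Rps19 among them, which raised the copies found. Alternatives were other pseudocounts, filters, scalings and variance models, a replicate block, leaving out each library and, added after seeing the data, summing members with their copies.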

Additional observations from a re-analysis of the deposited data

How the results depend on the processing

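The absence of called members did not depend on the pseudocount, the filter on low values, the scaling, the variance model or the sum with copies, in each of which 0 members were called. Leaving out 1 library gave 0 to 1 members called lower and 0 to 1 called higher (Rps19 without control 1, Rpl9 without hemicastrated 1, Rps10 and Rps28 without hemicastrated 2); with 3 libraries the lone sample is assumed to vary like the other group. Over all genes the calls ranged from 78 to 156 lower and 0 to 26 higher in these fits, with 63 lower and 7 higher at a mean of at least 5 FPKM (fewer genes tested) and 3 higher with no filter. The numbers 1 and 2 of the libraries are shared by the groups, but no label says that they pair mice, and deviations of same-numbered libraries correlated at 0.014. With the replicate block 1 member (Rpl9, adjusted p = 0.0217), 1 polymerase I gene (Polr1d) and 30 genes in all were called higher.

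The members' median log2 fold change was 0.041 under quantile normalization, where that of all genes was 0.017, and 0.028 to 0.049 with 1 library left out. The family's share differed by 0.017 to 0.074 percentage points with 1 library left out, and by 0.004 without the 5 highest members. With 1 library left out the lists had 0 to 1 assembly genes called lower (Mrto4), 0 to 1 polymerase I genes called higher (Polr1d) and 0 to 1 mTOR and LARP genes called lower (Larp1b).

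Some log2 fold changes changed sign, and the cause was not tested. Under quantile normalization they were -0.028 for Rpl22, 0.005 for Rpl7l1 and 0.078 for Rplp2. For Rpl22 the value was -0.009 in TPM and -0.008 scaled to all other genes. Of 20 tested members with a copy in the table, 6 changed sign when summed with copies, to -0.026 for Rpl6, -0.053 for Rplp1, 0.51 for Rps28, 0.17 for Rps18, -0.185 for Rpl36 and -0.038 for Rpl7a. With 1 library left out the range was -0.023 to 0.226 for Rpl10l, -0.127 to 0.131 for Rpl22, -0.184 to 0.101 for Rpl32, -0.36 to 0.151 for Rpl39, -0.118 to 0.045 for Rpl7l1, -0.048 to 0.042 for Rplp0, -0.105 to 0.068 for Rplp2, -0.016 to 2.31 for Rps10, -0.866 to 0.2 for Rps26 and -0.925 to 0.257 for Rps28. Depth is unknown, so the precision of low members is known only from the libraries' spread.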

Other observations

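Retrocopies of ribosomal protein genes also showed values that 1 library alone carried. Gm10263, a processed pseudogene 99.5% identical to the coding sequence of Rps28, was at 3.87 and 3.19 FPKM after sham surgery, 58.7 in hemicastrated 1 and 3.77 in hemicastrated 2. Rps28 itself had its lowest value, 22.5 FPKM, in that same library. Gm9493, a copy of Rps7 at 99.5% identity, was at 0.633 and 0.872 FPKM after sham surgery, 38.2 in hemicastrated 1 and 1.20 in hemicastrated 2, while Rps7 was at 0.727 and 1.35 against 1.43 and 1.32. Of the 39 copies listed in the table, 20 were tested and 0 were called in limma over all genes (smallest adjusted p = 0.107, which is that of Rpl6, itself counted as a copy of Rpl6l). These copies were picked for their values, and no cause was tested.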
